A study of Mus musculus with 9 samples.

Results

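Oligodendrocyte precursor cells are the dividing glia from which the myelin-forming cells of the brain arise. The 10 genes described here encode the receptors, proteoglycans and other cell-surface and matrix proteins by which these precursors, and the committed cells that follow them, are usually recognised: Pdgfra, Cspg4, Ptprz1, Vcan, Gpr17, Lhfpl3, Neu4, Cspg5, C1ql1 and Tnr. They were chosen by symbol, through the RefSeq identifiers of the deposited table, and all 10 were found, as 17 of 33299 transcripts and 10 of 23798 genes. The data comprised 9 libraries of mouse brain in 3 groups of 3. The first was WT with placebo, the second carried the genotype that the labels call TG and also had placebo, and the third was TG with NM-101, an agent the labels do not describe. The series title names alpha-synuclein from neurons and oligodendrocytes. No label or protocol says what the transgene or its promoter is, how old the mice were or whether each library came from its own animal, so p-values measure only the spread between these libraries, which may be technical.

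As background, precursors divide in response to platelet-derived growth factor, which is made by neurons and astrocytes and is read by the receptor PDGFRA. They carry large chondroitin sulfate proteoglycans on their surface, among them CSPG4 (also called NG2) and the phosphatase receptor PTPRZ1, and lie in a matrix that holds versican and tenascin-R. When a precursor commits to becoming an oligodendrocyte it loses PDGFRA and CSPG4 and passes through a short stage marked by the receptor GPR17, before the myelin genes come on. Several of these genes are also used elsewhere: Pdgfra by fibroblasts of the brain's coverings, Cspg4 by pericytes, and Ptprz1 and Cspg5 by astrocytes or neurons.

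The WT columns of the table hold counts, with totals of 10612290 to 14041951 per library, and the TG columns hold log2 values, read here as log2(FPKM + 1), where FPKM is fragments scaled to transcript length and library size. Steps in the low TG values imply depths of 9120000 to 12890000 reads. The libraries are labelled as oligodendrocytes, yet genes of other cell types were plentiful in them. The median level of 10 neuronal genes ran from 7.31 to 7.68 on the log2(FPKM + 1) scale in the 6 TG libraries, and that of 10 astrocyte genes from 5.72 to 6.22, against 3.24 to 3.50 for the 10 precursor genes. None of the 10 neuronal or 10 astrocyte genes was at 0 in all 6 libraries. These are different genes, so the medians do not measure cell content. In such bulk RNA, fewer cells of a type and less RNA per cell cannot be told apart. TG placebo replicate 1 stood apart from the other placebo libraries. Its summed level of 12 ependymal and choroid plexus genes was 12.28 (log2), against 5.00 and 5.26 in replicates 2 and 3, and its summed level of nuclear-retained RNAs was 7.63, against 10.15 and 10.43. NM-101 replicate 2 also held more of the ependymal and choroid plexus genes (10.15) than replicates 1 and 3 (6.55 and 6.82).

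Among the members, the versican gene Vcan is the one whose result turned on its splice forms, so the sequences that tell those forms apart are shown first. Versican binds hyaluronan at one end and carries its chondroitin sulfate chains on segments encoded by a pair of long exons, GAG-alpha (2880 bases) and GAG-beta (5217 bases). The forms are named by the exons they keep: V0 has both, V1 has GAG-beta, V2 has GAG-alpha and V3 has neither. By this structure in GENCODE M21 (GRCm38), V0 is NM_001081249, V1 is NM_019389, V2 is NM_001134474 and V3 is NM_001134475. A further short form, NM_172955, ends before either exon. Each line below gives 15 coding bases before a splice junction in lower case and 15 after it in capitals, 5′ to 3′ on the minus strand of chromosome 13.
V0 and V2, shared exon to GAG-alpha: cctactgctttaaacCTAAACAGAATATAT
V1, shared exon to GAG-beta: cctactgctttaaacGTCGATTGAGTGATA
V3, shared exon to the exon after both: cctactgctttaaacGACCTGATCTCTGCA
V0, GAG-alpha to GAG-beta: gagaaaacaagacagGTCGATTGAGTGATA
V2, GAG-alpha to the exon after both: gagaaaacaagacagGACCTGATCTCTGCA
V0 and V1, GAG-beta to the exon after both: cagtttacctaccagGACCTGATCTCTGCA
The junction of V3 lies 1101 bases from that transcript's annotated 3′ end, and the junction by which V2 leaves GAG-alpha lies 1512 bases from its own. The library kit reads transcripts from the 3′ end. The 4 forms share 1 stop codon (13:89657231-89657233) but are annotated with different last bases, from 89657056 for V3 to 89655312 for V0. How the authors' counting program divided reads among them is not given in the sources used here.

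Comparing TG mice given NM-101 with TG mice given placebo asked what the agent changed, and 0 of the 10 precursor genes passed in limma at an adjusted p of 0.05, where 0.134% of all 12699 genes tested passed (0.102% higher and 0.0315% lower). Without TG placebo replicate 1 the count for the members was also 0, while 1222 of all genes passed as higher and 1041 as lower. All 10 were above the level needed for testing (a mean log2 value of at least 1), and 1 of them, Vcan, had an unadjusted p under 0.05, as did 14.8% of all genes, with 4.17% lower like Vcan. The median difference over the members was 0.02 on the log2 scale, and over all genes it was 0.03. The sign of the members' median was not settled: it was -0.085 without TG placebo replicate 1, 0.084 without NM-101 replicate 1 and -0.018 with median-ratio scaling. In direction, 6 members had a higher mean under NM-101 and 4 a lower one, where 55.5% of all genes had a higher one. The 2 groups did not overlap for Vcan and Neu4, both lower, which is 2 of 10 members where 5.98% of all genes lay lower without overlap, 13.6% higher and 19.6% either way. The members named were chosen with earlier results of these data known, so these counts are descriptions.

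**Figure D1:**
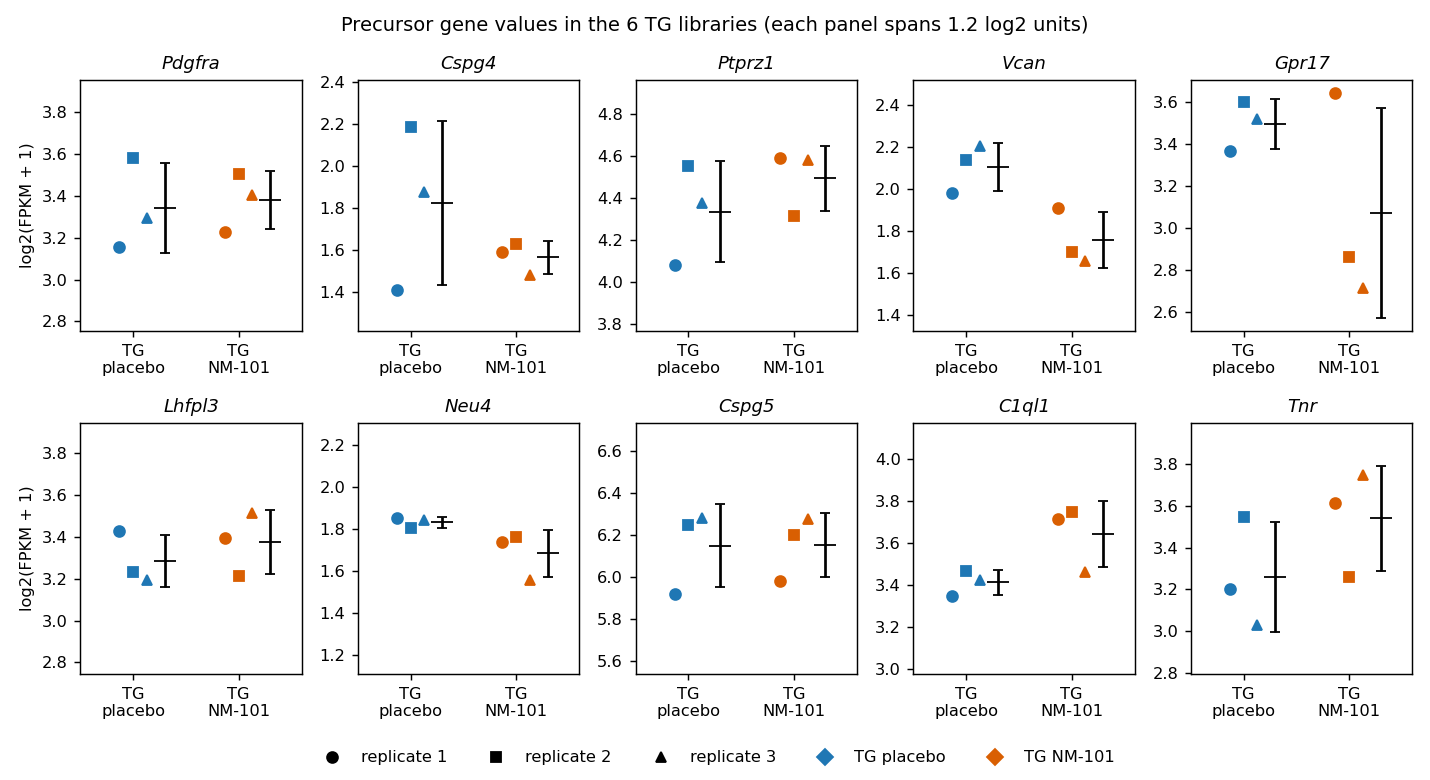
The value of each precursor gene in each TG library, as log2(FPKM + 1) on the vertical axis, with TG placebo in blue, TG NM-101 in orange, replicates by marker shape, and the mean with its SD (n = 3) in black. The groups are apart only for Vcan and Neu4, and for Gpr17 NM-101 replicate 1 (3.64) lies far above replicates 2 and 3 (2.86 and 2.71).

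Pdgfra, the growth factor receptor that keeps precursors dividing, lies on chromosome 5 from 75151322 to 75198206 (GRCm38, as are all positions here). Its values were 3.16, 3.58 and 3.29 in the TG placebo libraries and 3.23, 3.50 and 3.40 in the NM-101 libraries, on the log2(FPKM + 1) scale. The 2 ranges overlapped almost wholly. The difference was 0.03 (SE 0.14, 95% interval -0.28 to 0.35, limma adjusted p = 0.928). As a ratio of FPKM + 1, the interval runs from 0.821 to 1.28. Leaving out TG placebo replicate 1 or NM-101 replicate 2 turned the sign, to -0.06 and -0.03. The summed level of 8 fibroblast genes was 6.46, 6.24 and 6.02 under placebo and 5.30, 6.19 and 6.17 under NM-101. Its largest genes, Igf2 and Dcn, ran opposite ways under placebo. Igf2 was at 6.02, 3.38 and 3.10 there, and Dcn at 3.83, 5.77 and 5.59. Under NM-101 Igf2 was at 3.185, 3.92 and 3.89, and Dcn at 4.56, 5.655 and 5.61. The sum therefore does not rank the libraries by fibroblast RNA, and the part of these genes in the Pdgfra values was not tested.

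Cspg4 encodes NG2, the proteoglycan that gives precursors their other name, NG2 glia, and lies on chromosome 9 from 56865104 to 56899870. Its values were 1.41, 2.19 and 1.88 under placebo and 1.59, 1.63 and 1.48 under NM-101. The placebo libraries spanned the NM-101 libraries, with replicate 1 below all of them and replicates 2 and 3 above. The difference was -0.26 (95% interval -0.72 to 0.20, limma adjusted p = 0.565). Without TG placebo replicate 1 it was -0.47, with a limma adjusted p of 0.0603. Summed levels of 10 pericyte and smooth muscle genes were 5.51, 5.81 and 5.84 under placebo and 5.52, 5.54 and 5.64 under NM-101. The largest of these genes, Vtn and Rgs5, ran opposite ways under placebo. Vtn was at 4.26, 4.99 and 4.98 there, and Rgs5 at 4.08, 3.54 and 3.715. Under NM-101 Vtn was at 4.15, 4.61 and 4.51, and Rgs5 at 4.09, 3.24 and 3.98. The sum therefore does not rank the libraries by pericyte RNA, and the part of these genes in the Cspg4 values was not tested.

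Ptprz1 and Cspg5 were the most abundant members in every library. Ptprz1, a receptor phosphatase that carries chondroitin sulfate and binds pleiotrophin and contactin, stood at 4.08, 4.55 and 4.38 under placebo and at 4.59, 4.32 and 4.58 under NM-101 (chromosome 6, 22875315 to 23052916). The difference was 0.16 (95% interval -0.16 to 0.48, limma adjusted p = 0.611), and NM-101 replicate 2 lay below 2 of the placebo libraries. The Ptprz1 difference was 0.03 without TG placebo replicate 1 and 0.27 without TG placebo replicate 2. Cspg5, which encodes neuroglycan C, a membrane proteoglycan with a growth factor-like domain, was at 5.92, 6.25 and 6.28 under placebo and at 5.98, 6.20 and 6.28 under NM-101 (chromosome 9, 110243783 to 110262576). Its group means differed by 0.002, with a 95% interval from -0.28 to 0.29, and the sign turned when single libraries were left out. Beside these 2 genes, the median difference over 10 astrocyte genes was 0.39, with 10 of 10 means above placebo, and 1 of them passed, Sox9 (0.77, limma adjusted p = 0.0425). That call was not settled: no gene passed as higher when any single NM-101 library was left out, while 1222 did without TG placebo replicate 1. The summed astrocyte level was 10.26 to 10.43 under placebo and 10.76 to 10.85 under NM-101, and its part in the values of Ptprz1 and Cspg5 was not tested.

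Tnr encodes tenascin-R, a matrix protein that precursors and oligodendrocytes lay down and that binds lecticans and contactin. It was at 3.20, 3.54 and 3.03 under placebo and at 3.61, 3.26 and 3.75 under NM-101 (chromosome 1, 159523729 to 159931729). The ranges overlapped, and the difference was 0.28 (95% interval -0.11 to 0.67, limma adjusted p = 0.466). C1ql1, a secreted C1q-like protein of precursors and of some neurons, was at 3.35, 3.46 and 3.42 under placebo and at 3.72, 3.75 and 3.46 under NM-101 (chromosome 11, 102939264 to 102946716). NM-101 replicates 1 and 2 were above every placebo library, and replicate 3 (3.460) lay just under placebo replicate 2 (3.464). The C1ql1 difference was 0.23 (95% interval -0.03 to 0.50, limma adjusted p = 0.390). Lhfpl3, a 4-pass membrane protein of precursors, was at 3.43, 3.23 and 3.19 under placebo and at 3.39, 3.21 and 3.52 under NM-101 (chromosome 5, 22746054 to 23275597). Its difference was 0.09 (95% interval -0.20 to 0.37), with the libraries interleaved.

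The committed-precursor genes Gpr17 and Neu4 both had lower means under NM-101. Gpr17 encodes a G protein-coupled receptor that marks the passage from precursor to oligodendrocyte. Its values were 3.36, 3.60 and 3.52 under placebo, and 3.64, 2.86 and 2.71 under NM-101. NM-101 replicates 2 and 3 lay below all placebo libraries while replicate 1 lay above them, so the NM-101 SD was 0.50, against 0.12 under placebo. The difference of -0.42 was the farthest from 0 among the members (95% interval -0.95 to 0.10, limma adjusted p = 0.412). It was -0.71 without NM-101 replicate 1 (limma adjusted p = 0.127) and -0.24 without NM-101 replicate 3. The pooled SD of Gpr17 within groups was above that of 91.5% of all genes tested. In the same NM-101 libraries the summed level of 20 genes of newly formed oligodendrocytes was 8.28, 7.98 and 8.10, and that of 14 myelin genes 11.95, 11.14 and 11.54. Both sums were highest in replicate 1. The median level of the 20 genes was instead highest in NM-101 replicate 2, at 2.34, 2.43 and 2.31 (log2) in replicates 1 to 3. Under placebo that median was 2.98, 2.43 and 2.28. Under placebo the same sums were 8.41, 8.04 and 7.97, and 12.35, 10.78 and 10.72, highest in replicate 1, where Gpr17 was lowest among the 3. Their part in the Gpr17 values was not tested.

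Neu4 encodes a sialidase, an enzyme that trims sialic acid, and is used as a marker of committed precursors. It stood at 1.85, 1.80 and 1.84 under placebo and at 1.74, 1.76 and 1.55 under NM-101 (chromosome 1, 94020493 to 94028334). All NM-101 libraries were below all placebo libraries, which lay close together (SD 0.03, n = 3). The difference of -0.15 did not pass (95% interval -0.46 to 0.17, limma adjusted p = 0.633). Its reads were few: the steps imply between 80 and 145 reads per TG library.

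**Figure D2:**
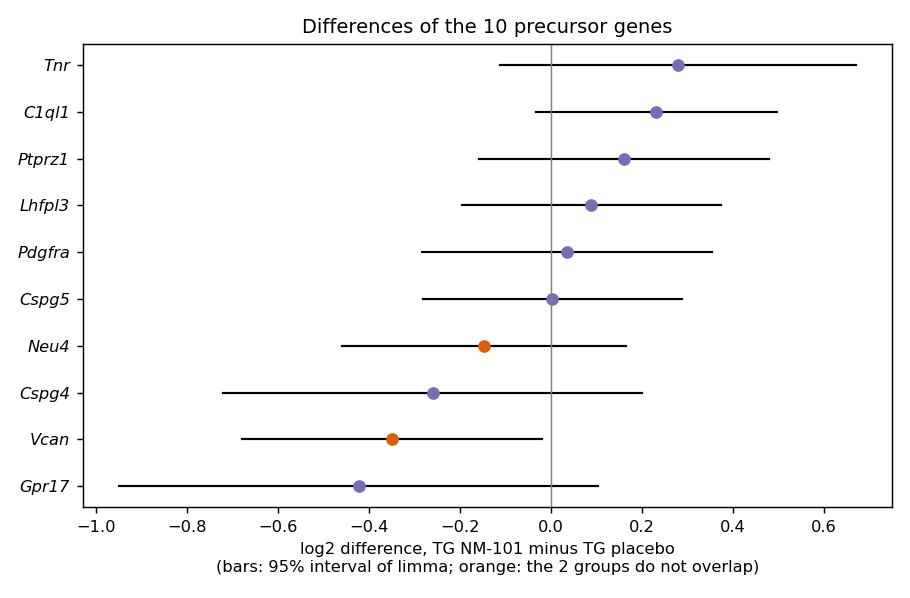
Difference in log2(FPKM + 1) between TG NM-101 and TG placebo for each precursor gene on the horizontal axis, with the 95% interval from limma as a bar and the genes whose groups do not overlap in orange. The differences run from -0.42 (Gpr17) to 0.28 (Tnr), and the interval of Vcan alone lies to one side of 0, although its adjusted p was 0.314.

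Vcan, summed over its 5 transcripts, was at 1.98, 2.14 and 2.20 under placebo and at 1.91, 1.70 and 1.66 under NM-101 (chromosome 13, 89655309 to 89743027). All NM-101 libraries lay below all placebo libraries. The difference was -0.35 (SE 0.15, 95% interval -0.68 to -0.02), with an unadjusted p of 0.0399 and a limma adjusted p of 0.314. The alternatives gave adjusted p-values from 0.0746, without TG placebo replicate 1, to 0.716.

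The values listed for the splice forms of Vcan did not move together. How reads were divided among the forms is not known, and reads over the junctions shown above were not counted here. A change in splicing therefore cannot be told apart from a change in that division. V2, the GAG-alpha form and the one best known from adult brain, was at 1.17, 1.32 and 1.10 under placebo and at 1.48, 1.31 and 1.54 under NM-101. V3, which has no segment for chondroitin sulfate, was at 1.24, 0.91 and 1.26 under placebo and at 0.42, 0.54 and 0 under NM-101. V3 was therefore lower in each NM-101 library than in any placebo library, as were 5.8% of 8562 transcripts of genes with several (8.61% were higher), while V2 was higher in 2 of the 3 NM-101 libraries than in any placebo library. Tested singly, V2 differed by 0.25 (95% interval -0.20 to 0.70, limma adjusted p = 0.618), the opposite sign to the gene, and V3 fell under the level tested. At this level of transcripts 0.0444% of 15771 passed, and no transcript of a member did.

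As a share of the gene's summed FPKM, V2 made up 42.5%, 43.9% and 31.7% under placebo and 64.6%, 65.6% and 88.8% under NM-101. V3 made up 46.3%, 25.9% and 38.9% under placebo and 12.2%, 20.3% and 0% under NM-101. Neither share overlapped between the groups. The 2 shares are parts of the same total, so they do not vary independently. Reads were few: the steps imply between 116 and 242 reads per TG library for all Vcan transcripts together. Among 8550 transcripts of genes with several, 5.51% had a share that was higher without overlap and 5.19% one that was lower. These shares were singled out after their values were seen, and were given no test. V1 was between 0.31 and 0.88 in 5 of the 6 TG libraries and at 0.27 in the sixth. V0, the form with both GAG exons, was listed at 0 or 0.001 in 5 of the 6 and at 0.33 in TG placebo replicate 2.

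Because V3 is short (2321 bases, against 5702 for V2), a read given to V3 adds more FPKM than a read given to V2. Multiplying each value by its transcript length before summing, an alternative added after the data were seen, gave Vcan levels, in RPM (reads scaled to library size only), of 12.9, 18.8 and 17.3 under placebo and 15.6, 11.6 and 12.7 under NM-101. On that scale the groups overlapped, and the log2 difference was -0.27 (limma adjusted p = 0.523). The Vcan groups were therefore apart in FPKM and not in RPM.

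**Figure D3:**
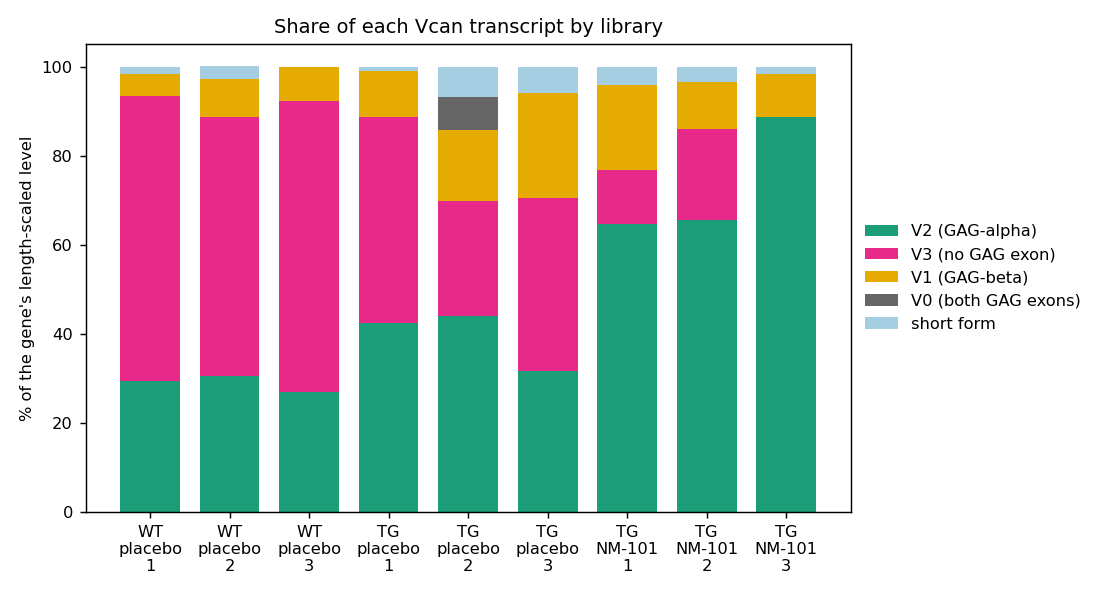
Share of each Vcan transcript in the gene's length-scaled level (RPKM rebuilt from counts for WT, deposited FPKM for TG) on the vertical axis, as stacked bars for the 9 libraries. V2 makes up 26.9% to 30.6% in the WT libraries, 31.7% to 43.9% in TG placebo and 64.6% to 88.8% in TG NM-101, while V3 makes up 58.2% to 65.3% in WT and at most 20.3% in TG NM-101.

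In the WT libraries V2 had 88, 80 and 85 counts and V3 had 78, 62 and 84, while V0 had 0 counts in all 3. Scaled by length, V3 made up 64.1%, 58.2% and 65.3% of the WT Vcan level. WT and TG columns were normalized separately, so the WT shares are set beside the TG ones only as a description.

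The other members with several transcripts are Pdgfra, Lhfpl3 and Cspg5, and in each the main form held most of the level in every TG library. The 2 Pdgfra transcripts share their stop codon and differ in the first exon, which begins at 75152306 for NM_011058 and at 75155899 for NM_001083316. The second was at 0.83, 0.68 and 1.03 under placebo and at 0.78, 0 and 0 under NM-101. It also had 44, 0 and 141 counts in the WT libraries, so a 0 appeared in 1 WT library too. Of 8550 transcripts of genes with several, 5.42% were above 0 in all TG placebo libraries and at 0 in at least 1 NM-101 library. The main form, NM_011058, differed by 0.12 between the groups (95% interval -0.29 to 0.53).

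Lhfpl3 and Cspg5 have forms that differ in coding sequence, shown here by junctions that part them, in the same style and on the plus strand of chromosomes 5 and 9.
Lhfpl3, NM_029990: aagcagaaaacaaagTTCTGTTAAGCCAAT
Lhfpl3, NM_001081231: aagcagaaaacaaagATGATGGAAATGCTT
Cspg5, NM_013884: ggctctcatccaaatGACGACCCCAGCGCT
Cspg5, NM_001166273: aacattgtctgtcagGACGACCCCAGCGCT
The second Lhfpl3 form begins at another first exon and has a 48-base exon that holds its stop codon. It made up 17.5%, 3.6% and 13.1% of the gene's FPKM under placebo and 12.3%, 5.1% and 17.4% under NM-101. The second Cspg5 form comes from a longer exon (157 against 76 bases) whose junction lies 516 bases from the 3′ end and ends at the same stop codon. It made up 9.9%, 9.6% and 10.7% under placebo and 12.7%, 8.0% and 8.8% under NM-101. Both shares overlapped between the groups.

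The members also differed in which library was lowest. TG placebo replicate 1 was the lowest of the 6 TG libraries for 5 of the 10 members, Pdgfra, Cspg4, Ptprz1, Cspg5 and C1ql1, while it was lowest for 23.1% of all genes tested. It held the highest value only for Neu4. NM-101 replicate 3 was lowest for Vcan, Gpr17 and Neu4, and for 12.5% of all genes tested. It was highest for Lhfpl3 and Tnr, and for 18.3% of all genes tested. It also had the lowest depth of the TG libraries, at 9120000 reads by the steps. The summed level of myelin genes ran the other way in TG placebo replicate 1, at 12.35 against 10.78 and 10.72 in replicates 2 and 3, and its part in the order of the members was not tested.

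Genes of the pathways around the members were set beside them in 11 lists with 172 symbols, of which 143 were tested. In limma 0 passed at an adjusted p of 0.05, and 18 had an unadjusted p under 0.05, 17 of them higher under NM-101. Over all genes 14.8% had such a p, and most of these were higher too (1884 in all, 529 lower). When each library was left out in turn, the median kept its sign throughout only for the PTPRZ1, GPR17 and LHFPL lists. Other genes of precursors had a median difference of 0.04, with 15 of 24 higher. The smallest p-values among them belonged to Scrg1 (6.02 ± 0.06 under placebo and 6.49 ± 0.05 under NM-101, SD, n = 3, limma adjusted p = 0.0823) and Luzp2 (4.88 ± 0.08 and 5.44 ± 0.16, limma adjusted p = 0.0866). Both were higher in every NM-101 library. Genes of newly formed oligodendrocytes had a median of 0.04, with 9 of 17 higher. Those with the smallest p-values, Epb41l2 and Itpr2, differed by 0.19 and 0.20 on the log2 scale. Bmp4 and Enpp6, markers of the same stage as Gpr17, were under the level tested, with 27 to 44 and 45 to 71 counts per WT library. Myelin genes had a median of 0.16, with 12 of 14 higher and 0 at an unadjusted p under 0.05. The myelin median was 0.59 without TG placebo replicate 1, -0.05 without TG placebo replicate 2 and -0.06 without TG placebo replicate 3. Apod differed by 0.53 and Opalin by -0.27, with groups that overlapped.

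For the receptor PDGFRA, its ligands and partners had a median of -0.07, with 3 of 8 tested genes higher. Pdgfd, which encodes a ligand that acts mainly through the other PDGF receptor, was at 1.63 ± 0.06 under placebo and 2.05 ± 0.16 under NM-101 (SD, n = 3), higher in every NM-101 library, with a limma adjusted p of 0.247. The protease gene Furin differed by -0.20. Ligands and partners of PTPRZ1 had a median of -0.09, with 7 of 18 higher. Git1, a scaffold protein that PTPRZ1 dephosphorylates, went from 6.55 ± 0.10 to 7.21 ± 0.12 (SD, n = 3, limma adjusted p = 0.0572) and the syndecan gene Sdc4 from 5.78 ± 0.33 to 6.43 ± 0.15 (limma adjusted p = 0.144). Both were higher in every NM-101 library, although neither passed.

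In the matrix, lecticans, hyaluronan-binding proteins and their partners had a median of 0.01, with 6 of 11 tested genes higher. Cntn1, a contactin that binds both PTPRZ1 and tenascin-R, differed by 0.15 and the link protein gene Hapln1 by 0.27. Acan, which encodes the aggrecan of perineuronal nets, was under the level tested at 24 to 28 counts per WT library. The enzymes that build chondroitin sulfate had a median of 0.03, with 12 of 20 higher. Fam20b, a kinase that acts on the linker of the chain, differed by 0.36 (limma adjusted p = 0.257) and the sulfotransferase gene Ust by 0.32 (limma adjusted p = 0.320).

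Of the families of the remaining members, GPR17-related and purinergic genes had a median of 0.28, with 6 of 9 higher. Its leading genes, P2ry13 (0.56) and P2ry12 (0.43), are purinergic receptors known from microglia. In the list of 8 microglial genes, which itself holds P2ry12, 7 had a higher mean, with a median of 0.36 and 0 passing. Sialidases and ganglioside genes had a median of 0.01, with 7 of 11 higher and St8sia1 at 0.44. C1q-like proteins and their receptors had a median of -0.01, with C1ql2 at -0.47 and Adgrb1 at -0.41. The LHFPL family had a median of -0.13 over 4 genes, with Lhfp at 0.53 and Lhfpl2 at -0.19.

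Over the 6 TG libraries, the genes whose pattern was nearest to a member's were found by the root mean square difference of log2 values after removing each gene's own mean. For Pdgfra they were Psmf1 (0.034), Cyp4f14 (0.040) and Alg2 (0.045), where the Pdgfra pattern itself had a root mean square of 0.149. For Cspg4 they were Nsmaf (0.034), Mfsd9 (0.065) and Cnot10 (0.066). For Gpr17 they were Fancg (0.086), Prkab2 (0.093) and Zfp207 (0.095), and for C1ql1 Mindy4 (0.043), Pex6 (0.046) and Nipsnap3b (0.051). None is among the precursor, newly formed oligodendrocyte or myelin genes listed here. With 6 libraries and 12699 genes, near patterns are easily found.

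In the WT libraries, where counts were deposited, the 10 genes ranged from 72 counts (Neu4 in WT replicate 1, exact Poisson 95% interval 56.3 to 90.7, counting error only) to 4399 counts (Cspg5 in WT replicate 2). Cspg5 had 2694, 4399 and 3213 counts and Ptprz1 1855, 2445 and 1620. Pdgfra had 672, 647 and 566 counts, Gpr17 433, 670 and 539, and Lhfpl3 350, 432 and 357. Tnr had 487, 351 and 308, Vcan 189, 177 and 205, and Cspg4 181, 159 and 147. C1ql1 had 93, 135 and 134, and Neu4 72, 110 and 126.

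As CPM (counts scaled to the library total), the steadiest member was Lhfpl3, at 31.4 ± 1.43 (SD, n = 3), a coefficient of variation of 4.5%. Gpr17 followed at 44.8 ± 3.57, or 8.0%. The most variable was Tnr at 32.3 ± 11.7, or 36.3%, with WT replicate 1 at 45.9 CPM and replicates 2 and 3 at 24.997 and 26.2. Pdgfra, Cspg4, Ptprz1, Vcan and Lhfpl3 were likewise highest in WT replicate 1, and Gpr17, Neu4, Cspg5 and C1ql1 lowest there. In WT replicate 1 the 12 ependymal and choroid plexus genes summed to 4708 CPM, against 142 and 215 in the others, and their part in these values was not tested.

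Divided by transcript length, and written as log2(RPKM + 1), the WT order ran from Cspg5 (6.22 ± 0.15) through Ptprz1 (4.39 ± 0.19), Lhfpl3 (3.68 ± 0.05), Gpr17 (3.26 ± 0.11), Pdgfra (3.16 ± 0.22), C1ql1 (2.95 ± 0.17), Vcan (2.39 ± 0.26), Tnr (1.84 ± 0.36) and Neu4 (1.51 ± 0.22) to Cspg4 (1.41 ± 0.20; SD, n = 3). This order depends on the lengths chosen: Vcan came last at 1.19 when its longest transcript stood for the gene, and Tnr and Neu4 stood at 3.01 and 2.55 with their shortest complete coding transcripts. It also depends on dividing by length at all, since a kit that reads from the 3′ end need not give more counts for longer transcripts. Before that division Tnr had 32.3 CPM and C1ql1 9.92, the reverse of their order here. Neighbours whose ranges overlapped were Gpr17 with Pdgfra, Pdgfra with C1ql1, Vcan with Tnr, Tnr with Neu4, and Neu4 with Cspg4. In TG placebo, on log2(FPKM + 1), Cspg5 (6.15 ± 0.20) and Ptprz1 (4.34 ± 0.24) again came before the others. Gpr17, C1ql1, Pdgfra, Lhfpl3 and Tnr followed between 3.49 and 3.26, each overlapping the next, and Vcan, Neu4 and Cspg4 came last at 2.11, 1.83 and 1.82.

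**Figure D4:**
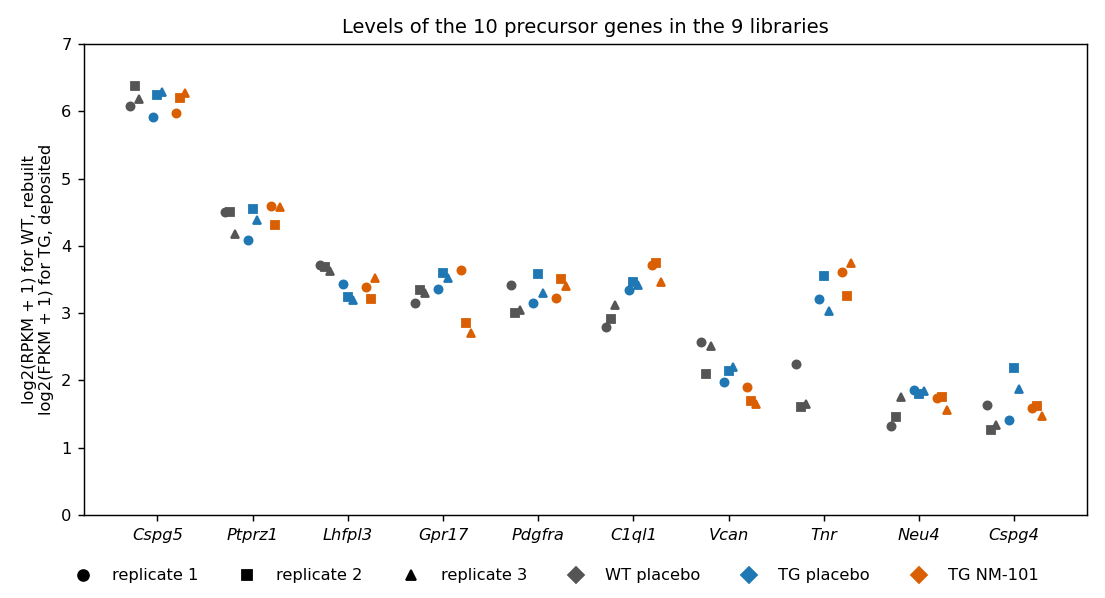
Level of each precursor gene on the vertical axis in the 3 WT (grey), 3 TG placebo (blue) and 3 TG NM-101 libraries (orange), with replicates by marker shape, as log2(RPKM + 1) rebuilt from counts for WT and as the deposited log2(FPKM + 1) for TG. Cspg5 lies near 6 in all 9 libraries, and Tnr is the gene with the widest gap between WT (1.61 to 2.25) and TG (3.03 to 3.75).

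The comparisons with WT placebo concern the genotype, without and with NM-101, and here they are descriptions only, because the WT and TG columns were normalized separately and the length that the authors divided by is not given. Both comparisons share the 3 WT libraries. TG placebo minus WT had a median of 0.21 over the members, against 0.05 over 12410 genes, and for TG NM-101 minus WT the values were 0.13 and 0.06. In TG placebo 4 members lay above every WT library (Gpr17, Neu4, C1ql1 and Tnr), where 20.8% of all genes did, and 1 lay below (Lhfpl3), where 15.9% did. In TG NM-101 2 members lay above (C1ql1 and Tnr), against 23.5% of all genes, and 2 below (Vcan and Lhfpl3), against 13.1%. With the longest transcript's length for WT, Vcan lay above WT in both TG groups and Lhfpl3 overlapped WT in both.

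The largest gap was that of Tnr, at 1.42 for TG placebo and 1.70 for TG NM-101 minus WT. The WT level was rebuilt with a transcript of 12202 bases. With the shorter complete coding transcript of 4424 bases, an alternative added after seeing the data, the WT values became 3.51, 2.73 and 2.79, which overlap both TG groups. Neu4 likewise turned, from 1.51 ± 0.22 in WT with a transcript of 4511 bases to 2.55 ± 0.28 (SD, n = 3) with one of 1719 bases, above every TG library. For Vcan, the longest transcript of 12427 bases gave WT values of 1.28, 1.01 and 1.26, below all 6 TG libraries, with differences of 0.92 and 0.57. For Lhfpl3, the longest of 3115 bases gave 3.54, 3.44 and 3.42, with differences of -0.18 and -0.09. The gaps of Tnr, Neu4, Vcan and Lhfpl3 to WT cannot be told apart from the choice of length. For C1ql1 and Gpr17 no shorter complete coding transcript was annotated, so no other length was tried. A length of 937 bases in place of 1473 would equate the WT and TG means of C1ql1, and 4958 in place of 5195 those of Gpr17. As the authors' lengths are not known, these gaps are open to the same limit.

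With each transcript's own length, C1ql1 and Lhfpl3 lay on the same side of WT in both TG groups. C1ql1 was 2.80, 2.91 and 3.12 in WT, below all 6 TG libraries (3.35 to 3.75), with differences of 0.47 and 0.70. Lhfpl3 was 3.72, 3.69 and 3.63 in WT, above all 6 (3.19 to 3.52), with differences of -0.39 and -0.30 that shrank and overlapped with the longest length, as given above. For the growth factor receptor Pdgfra the differences were 0.19 and 0.22, for Ptprz1 -0.05 and 0.11, and for Cspg5 -0.07 and -0.07, all with ranges that overlapped WT. Vcan differed by -0.29 and -0.64, and by 0.04 and 0.28 when its most abundant transcript stood for the gene.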

How the data were processed

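Per the labels' protocols, an FFPE kit was used to isolate the RNA of mouse brain, and QuantSeq libraries were made from it. The submitters' processing notes name Bowtie2 and mm10; how reads were counted, and against which gene models, is not given in the sources used here. Counts per RefSeq transcript, whole numbers, fill the 3 WT columns as deposited by the authors. The 6 TG columns hold log2 values deposited by the authors, read as log2(FPKM + 1) from the values alone: on a linear scale over 17075 transcripts their slope was 0.925 on log2 WT CPM and -0.823 on log2 length. Their depth was read from steps in transcripts of 2500 to 6000 bases. Between 78.1% and 84.6% of low values lay within 0.2 of a whole read.

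TG values were made linear, summed per symbol (RefSeq table of GRCm38.p6, 32390 transcripts named) and written as log2(value + 1), a scale that understates the change of low genes. Genes with a mean of at least 1 were tested over the 6 TG libraries with limma 3.58.1 in R 4.3.3 (variance trend, robust shrinkage, Benjamini-Hochberg over all 12699 genes, threshold 0.05). WT counts were divided by totals and GENCODE M21 lengths for description. The fit was tested in 5 simulations with independent normal errors. It recovered 68.4% of log2 differences of 1 and 14.0% of those of 0.5. The members' differences were all smaller than 0.5, so the lack of a call among them does not show that none changed. Within each group no 2 libraries were copies of each other, and pairs across groups were not checked. The members and lists were chosen with earlier results of these data known. Igf2 and Dcn were named for their weight in the fibroblast sum, and Vtn and Rgs5 for theirs in the pericyte and smooth muscle sum. Otherwise named were all members, and from each list the 2 genes with the smallest p and any past the threshold. For 4 members the 3 nearest patterns were named too. A gene that this rule names is not reported here. Alternatives covered the filter, pseudocount, scaling, transcripts, variance model, replicate block, transcript length and leaving out each library.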

Additional observations from a re-analysis of the deposited data

How the results depend on the processing

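Between the TG groups, under 14 alternatives, 0 members passed in limma in either direction. Their adjusted p-values ranged from 0.0603 (Cspg4) and 0.0746 (Vcan), both without TG placebo replicate 1, to 0.999 (Pdgfra with median-ratio scaling). With that scaling Pdgfra turned to -0.0001 and Cspg5 to -0.0364. Leaving out 1 library in turn gave differences from -0.0581 to 0.152 for Pdgfra and from -0.113 to 0.088 for Cspg5, so the sign of both was not settled. Vcan turned to 0.2463 when its most abundant transcript stood for it, and the other 7 members kept their sign. The count of all genes called was 13 higher and 4 lower. It was 0 higher without the low filter, with transcripts tested singly, without trend or robust shrinkage, with the replicate block and with lengths multiplied in, 1 higher with median-ratio scaling, and 0 in either direction for genes above 0 in all 6 samples. Leaving out 1 library gave 0 to 1222 higher and 2 to 1041 lower, the upper ends without TG placebo replicate 1. The cause was not tested. The replicate block left 3 lower calls and changed no member. Deviations of same-numbered TG placebo and NM-101 libraries from their group means correlated at 0.045, -0.027 and -0.018. With means of 3 libraries and no WT library included, these values cannot show whether same-numbered libraries share a batch.

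List medians moved beyond their spread between libraries in 4 lists when 1 library was left out: lecticans and partners from -0.003 to 0.122 (0.079 with lengths multiplied in), GPR17-related genes from 0.196 to 0.244, sialidases and ganglioside genes from -0.047 to 0.1, and the LHFPL family from -0.169 to -0.015. Against WT, the members' median ran from 0.125 to 0.289 for TG placebo and from 0.058 to 0.130 for TG NM-101, which was 0.071 with median-ratio scaling. Low depth limits the members with the fewest reads, among them Neu4, C1ql1, Cspg4 and Vcan.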
